A study of Mus musculus with 15 samples.

Results

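The step from 2 to 3 weeks of age was read in whole liver tissue of the inbred mouse strain C57BL/6, from 1 RNA library at week 2 (W2) and 1 at week 3 (W3). Its members were the genes on chromosomes with an estimate marked OK in both libraries and a level of at least 10 FPKM in W2 or W3, which gave 5315 of 44482 genes. FPKM adjusts the number of sequenced fragments for the length of a transcript and the depth of its library, so it can be compared between genes. The change of a gene is the log2 ratio of FPKM + 1 at W3 over W2, and a gene is counted as higher or lower from a 2-fold change onward. The ratio says nothing of animal-to-animal spread: there was 1 library per age, no test was possible, and no p-value is given. Each ratio may carry in brackets the range set by the 95% bounds that the authors deposited with each FPKM, which cover estimation error within a library only.

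The libraries come from a series of 15 ages between embryonic day 12.5 and 8 weeks, and those at 1, 6 and 8 weeks (W1, W6 and W8) were read beside the step. All 5 are whole livers of the same strain with no treatment or mutation named in the labels, and differ by age only as far as these say. How many animals went into a library, their sex, litter, feeding state, date of weaning and hour of death are not given in the sources used here, so the step is one of age, and the labels do not name weaning.

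Mouse pups live on milk, which is rich in fat and poor in carbohydrate, and turn to solid chow around the end of suckling. The suckling liver burns milk fatty acids and exports ketone bodies, with the nuclear receptor PPARα (Ppara) driving many of the genes. The weaned liver takes up dietary glucose, makes fatty acids and sterols of its own, and disposes of more amino nitrogen through urea. Sterol synthesis is held down by cholesterol through the transcription factor SREBP2 (Srebf2), and hepcidin from the liver closes off iron uptake in the gut.

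At W3, 388 of the 5315 genes were at least 2-fold higher than at W2 (7.3%) and 297 were at least 2-fold lower (5.59%), 685 together (12.9%). The surplus of higher genes depends on scaling: quantile normalization gave 331 higher and 336 lower, and leaving out mitochondrial transcripts 348 and 354. The bounds of the 2 libraries did not overlap for 670 of the 685 (97.8%). This was not particular to genes past 2-fold: the bounds of Dgat2 (ratio 0.19) and Cyp2e1 (-0.08) did not overlap either. How often that held over all 5315 genes is not reported here. The median ratio of all 5315 genes was 0.06. Every list below is to be read against that value and the shares of 7.3% higher and 5.59% lower. The threshold falls in a dense stretch: 68 genes lay just inside it, at 2.0 to 2.1-fold, and 77 just outside, at 1.9 to 2.0-fold. Of the steps between consecutive weekly libraries, each over its own genes at 10 FPKM or more, W1 to W2 had 3.27% higher and 6.15% lower, W3 to W6 had 4.39% and 14% and W6 to W8 had 5.14% and 3.08%.

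The neighbouring ages sorted the 685 genes. A gene was called lasting when W3, W6 and W8 all lay on the same side of both W1 and W2, and W6 and W8 were each at least 2-fold from W2. By that rule 167 genes were lasting higher (3.14%) and 210 lasting lower (3.95%). Which of the 2 was more frequent depends on scaling: median ratios gave 210 and 167 (55.7% higher, against 44.3% as deposited), and leaving out mitochondrial transcripts 129 and 277 (31.8%). The rule asks for no margin over W1, so a gene set apart at W2 can pass it narrowly. With a 2-fold margin over W1 as well, a rule added after the data were seen, 92 were higher and 105 lower, and this smaller set is called strictly lasting. A further 56 genes were higher in the W3 library alone (1.05%) and 10 lower (0.188%), with W6 and W8 within 2-fold of W2. In 106 higher genes (1.99%) and 62 lower ones (1.17%) that were not lasting, W3 was within 2-fold of W1, a shape called W2 apart. That balance also turned, to 71 and 82 with median ratios (46.4% higher, against 63.1%) and 67 and 103 with quantile normalization (39.4%). The W2 apart rule sets no distance between W2 and W1, so W2 need not stand alone. Ldha, for example, was at 1194 FPKM at W1, 1558 at W2 and 717 at W3. The remaining 59 higher (1.11%) and 15 lower genes (0.282%) had none of these shapes.

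**Figure D1:**
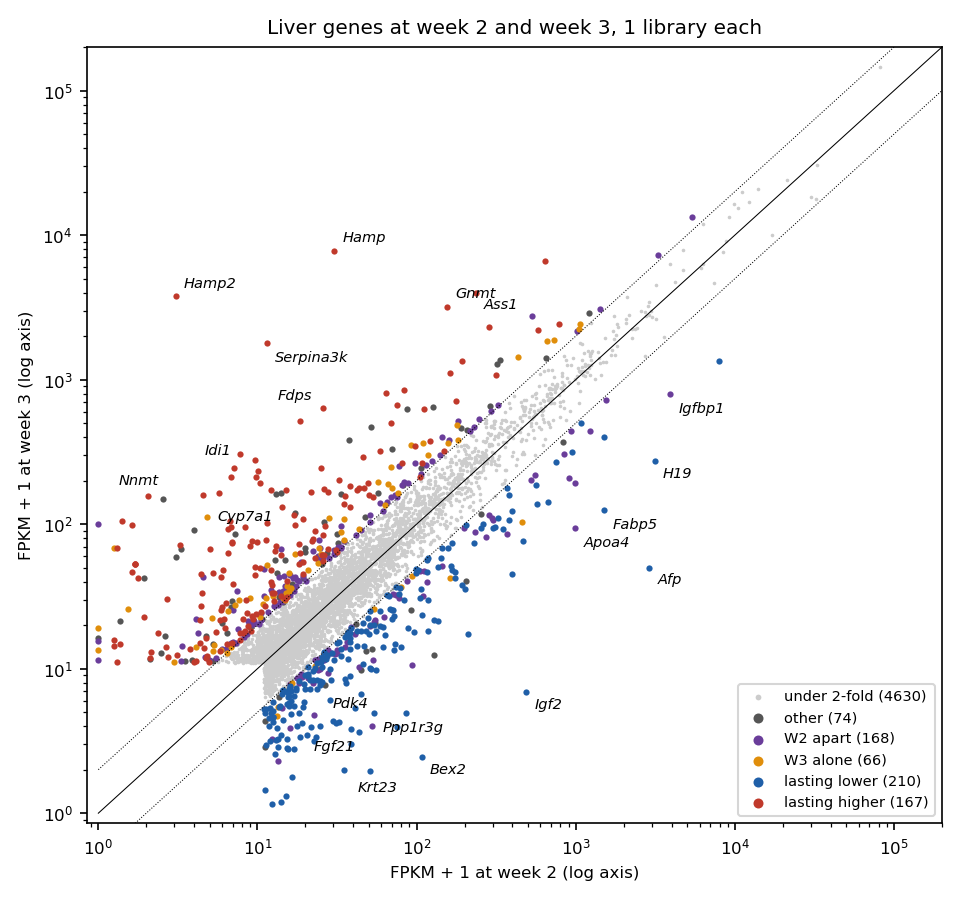
Each of the 5315 points is a gene, with FPKM + 1 at W2 on the horizontal and at W3 on the vertical axis (both log scales), and 1 library behind each axis. The solid line marks equal levels and the dotted lines a 2-fold difference; colours give the shapes, with 167 genes lasting higher and 210 lasting lower. Hamp2 and Hamp stand farthest above the line, and Igf2, Afp and Bex2 far below it.

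Among the lasting higher genes, 95 of 167 differed by at least 4-fold, and W6 and W8 both stayed within 2-fold of W3 in 91. A second increase followed in 33, whose W6 and W8 levels were both at least 2-fold above W3. Among the lasting lower genes, 67 of 210 differed by at least 4-fold, 98 stayed within 2-fold of W3, and 69 went down by at least 2-fold more by both W6 and W8. W2 was itself at least 2-fold below W1 in 48 of the 167 and at least 2-fold above W1 in 52 of the 210. For those genes part of the step retraces a change between W1 and W2.

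The libraries were alike in depth, with an estimated 16.3 M fragments at W1 and W2, 16.9 at W3, 20.2 at W6 and 17.2 at W8, and 3 fragments on 1000 bases gave 0.149 to 0.184 FPKM. Transcripts of the mitochondrial genome took 20.7% of all FPKM at W2 and 29.1% at W3. A large part of both was ATP8, at 81821 and 145860 FPKM. This gene is very short and overlaps ATP6, so its FPKM and these shares are uncertain. Globin transcripts took 0.946% and 0.747%. The hepatocyte proteins that define the tissue were abundant at both ages, with Apoa1 at 30244 to 18453 FPKM, Ttr at 8402 to 7683 FPKM and Trf at 17167 to 10057 FPKM from W2 to W3, while the estimate for Alb had failed at both. Xist, which female cells express, was at most 0.111 FPKM in the 5 weekly libraries and the Y-linked Ddx3y was between 3.49 and 12.5. Each of these libraries thus held RNA of male mice, with no clear female share. Across genes, the step from W2 to W3 was nearly unrelated to transcript GC content (Spearman rho 0.07 over 5241 genes), while W3 to W6 (0.43 over 4987) and W6 to W8 (-0.48 over 4463) leaned on it in opposite directions. With that trend removed from each library, 161 genes were lasting higher and 218 lasting lower.

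The highest ratios of the whole step belonged to the 2 hepcidin genes, Hamp2 and Hamp. Hepcidin is the peptide hormone that lowers iron export from the gut and from macrophages. RNA levels do not show whether the product of Hamp2 acts in the same way. Mice carry 2 hepcidin genes side by side on chromosome 7, Hamp (chr7:30942368-30944017, GRCm38) and Hamp2 (chr7:30922372-30924181). Hamp was at 26.8 FPKM at W1, 29.4 at W2, 7781 at W3, 545 at W6 and 2432 at W8. Hamp2 was at 4.76 FPKM at W1, 2.06 at W2, 3775 at W3, 71.7 at W6 and 45.7 at W8. The log2 ratios were 8.00 (7.69 to 8.38) and 10.27 (9.65 to 11.32). W3 was the highest of the 5 weekly libraries for both, and W6 and W8 remained above W1 and W2. Hamp was not new at W3, however: it was at 2065 FPKM on postnatal day 1 and 481 on day 5, so W1 and W2 formed a low stretch. Hamp2 on the same days was at 22.6 and 10.5 FPKM. The 2 genes are near-identical copies, and how the authors' counting divided fragments between them is not stated in the labels.

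The upstream stretches of the 2 genes are shown because the pair differed more than any other gene and their windows hold different motifs. Hepcidin is induced through STAT3 in inflammation and through SMAD proteins, on the BMP pathway, by iron. Each line is from the RefSeq promoter table (GRCm38.p6), minus strand, written 5′ to 3′, at chr7:30944087-30944166 for Hamp and chr7:30924236-30924315 for Hamp2. Capitals mark the STAT motif TTCNNNGAA and the BMP motif GGCGCC, both searched on both strands.
Hamp: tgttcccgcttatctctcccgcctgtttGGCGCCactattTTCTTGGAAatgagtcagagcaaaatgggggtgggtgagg
Hamp2: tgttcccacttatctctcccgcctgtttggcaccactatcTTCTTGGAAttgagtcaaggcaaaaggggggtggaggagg
Over these 80 bases, 71 are the same in both genes. Both stretches hold the STAT motif, which stands in 9.55% of 27025 gene promoters of 300 bases, and of these stretches that of Hamp alone holds the BMP motif, which stands in 13.4%.

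Besides the hepcidins, 4 members of the iron and heme list were higher, each by little more than 2-fold. Of its 24 members at 10 FPKM or more, 6 were higher and 0 lower, with a median of 0.20 (about 0 with quantile normalization), and only the hepcidins were lasting. Ftl1, the ferritin light chain that stores iron, went from 3299.9 to 7231 FPKM (log2 ratio 1.13) but had been at 4521 at W1. Hfe2, the BMP co-receptor hemojuvelin, went from 32.6 to 68.1 FPKM, and Id1, a target of BMP signalling, from 26.2 to 61.8 FPKM. Id1 then stood at 3.49 FPKM at W6 and 5.97 at W8, far under its level at either end of the step. Atoh8, a transcription factor that also responds to BMP signalling, was at 1.36 FPKM at W1, 13.8 at W2, 28.7 at W3, 7.96 at W6 and 10.7 at W8.

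Hepcidin is also an acute phase gene, and 10 of 40 members of the complement and acute phase list were higher and 3 lower (median 0.31); 9 were lasting higher, 7 of them strictly. Saa1, a serum amyloid A protein carried on HDL in inflammation, was at 19.1 FPKM at W1, 17.6 at W2, 518 at W3, 3494 at W6 and 33177 at W8. Orm1, the orosomucoid that binds drugs in plasma, was at 3.19 FPKM at W1, 4.70 at W2, 164 at W3, 2497 at W6 and 6818 at W8. Each increased again after W3, unlike the hepcidins. The summed level of the list was 11552 FPKM at W2, 24340 at W3, 23580 at W6 and 124086 at W8. The single W8 library was thus far above the other weeks, with Saa2 at 1586 FPKM at W6 and 44203 at W8. What set W8 apart was not tested, so its levels are a poor guide to how the step lasted. Orm2, Saa2 and Saa3 were likewise higher again at W6 and at W8, after ratios of 5.71, 3.51 and 1.61. Orm and Saa genes are close paralogs, so the division between them is uncertain. Not every acute phase gene took this course: Serpina3n, an inhibitor of serine proteases, went from 841 to 304 FPKM and Fgl1, a secreted fibrinogen-like protein, from 1221 to 442 FPKM, each to a level within 2-fold of W1. The STAT motif stood in 9 of the 29 members with a promoter entry (31.0%, against 9.55% of all), and in 3 of 23 fatty acid oxidation members, 1 of 16 sterol members and 1 of 32 of the nitrogen list. These counts cover list members whether or not they differed at W3. Among all lasting higher genes the motif stood in 15 of 119 (12.6%), and among lasting lower genes in 11 of 149 (7.38%).

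Of the plasma protein genes, 6 of 61 were higher and 4 lower (median -0.05), shares of 9.84% and 6.56% near the background. Those that did differ differed widely. Serpina3k, the contrapsin of mouse plasma (chr12:104338486-104345739), was at 23.5 FPKM at W1, 10.5 at W2, 1789 at W3, 9687 at W6 and 8278 at W8, a log2 ratio of 7.28 (7.12 to 7.47). Mug1, a murinoglobulin that traps proteases, was at 11.2 FPKM at W1, 11.2 at W2, 172 at W3, 483 at W6 and 364 at W8. Both reached their highest level at W6. Apoc3, which slows the clearance of triglyceride-rich lipoproteins, was at 598 FPKM at W1, 642 at W2, 6578 at W3, 8227 at W6 and 5827 at W8, with W1 and W2 low and the 3 later libraries high. Its neighbour Apoa4 did the opposite at W2, as given below. Serpina3k has close paralogs, and its level is uncertain to that degree.

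Sterol synthesis was the list with the widest shift. All 24 members were at least 2-fold higher at W3, with a median log2 ratio of 2.83, and W3 was the highest of the 5 weekly libraries in 23 of them (95.8%, against 23.5% of all genes). The summed level was 996 FPKM at W1, 642 at W2, 4069 at W3, 1284 at W6 and 1801 at W8. W3 was thus high against both sides: 22 of 24 were also at least 2-fold above W1, 14 were lasting, and only 4 were strictly so. W2 was the lowest of the 5 libraries in 18, against 17.7% of all genes.

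The entry steps of the pathway join acetyl units and make mevalonate. Hmgcs1, which makes HMG-CoA in the cytosol, was at 95.8 FPKM at W1, 50.9 at W2, 468 at W3, 28.5 at W6 and 119 at W8 (log2 ratio 3.17). It fell outside the lasting class because W6 was below W2. Mvk, Pmvk and Mvd, which carry mevalonate to isopentenyl diphosphate, had ratios of 3.81, 2.76 and 4.47, and Acat2, the cytosolic thiolase, 1.98.

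Idi1, the isomerase that sets up chain growth (chr13:8885606-8892396), had the highest ratio of the pathway, 5.12 (4.95 to 5.30). It was at 22.3 FPKM at W1, 6.07 at W2, 244 at W3, 22.9 at W6 and 79.9 at W8. W6 was level with W1, so its place in the lasting class rests on a margin of under 1 FPKM. Fdps, the farnesyl diphosphate synthase, was at 78.0 FPKM at W1, 24.8 at W2, 635 at W3, 244 at W6 and 357 at W8 and stayed at least 2-fold over W1. Sqle, the squalene epoxidase that is a further control point, was at 20.5 FPKM at W1, 2.06 at W2, 58.0 at W3, 18.3 at W6 and 48.7 at W8, with W3 and W8 high, W6 under W1 and W2 lowest.

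The later steps from lanosterol to cholesterol were higher too. Sc4mol, a sterol methyl oxidase, and Cyp51, the lanosterol demethylase, had ratios of 4.85 and 3.96. Lss, Nsdhl, Ebp, Dhcr7, Hsd17b7 and Sc5d lay between 1.74 and 3.75. Fdft1, the squalene synthase, was at 67.1 FPKM at W1, 68.0 at W2, 248 at W3, 51.2 at W6 and 77.2 at W8, and is 1 of the 5 members high in the W3 library alone, as are Acat2, Sc5d and Stard4. Of the genes around the pathway, Insig1, which holds SREBP2 in the endoplasmic reticulum, had a ratio of 2.63 and Srebf2 itself 1.31.

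A sterol element, searched as TCACNCCAC on both strands, stood in 1 of 16 members with a promoter entry (6.25%), against 1.44% of 27025 promoters. It is not particular to that list: 2 of 23 fatty acid oxidation members hold it (8.70%), 1 of 29 of the acute phase list and 1 of 32 of the nitrogen list. The 1 sterol match is the Hmgcs1 promoter, shown because this gene opens the pathway, at chr13:119690188-119690247 on the plus strand (RefSeq, GRCm38.p6), with the element in capitals.
Hmgcs1: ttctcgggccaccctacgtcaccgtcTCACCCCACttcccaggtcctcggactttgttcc

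Several fat synthesis genes were low at W1 and W2 and high from W3. Of 20 lipogenesis members, 8 were higher and 3 lower (median 0.65), with 6 lasting higher and 5 of those strictly. Thrsp, the Spot 14 protein of lipogenic tissue (chr7:97412957-97417510), was at 1.12 FPKM at W1, 0.625 at W2, 45.4 at W3, 323 at W6 and 96.4 at W8, a log2 ratio of 4.84 (4.39 to 5.37). Scd1, the desaturase that makes oleate, was at 2.40 FPKM at W1, 4.24 at W2, 44.8 at W3, 545 at W6 and 329 at W8. W1 and W2 were low and the later 3 libraries high in both, with W6 the highest.

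Fasn, the fatty acid synthase, was at 7.09 FPKM at W1, 4.89 at W2, 42.3 at W3, 62.9 at W6 and 26.6 at W8. Acss2, which activates acetate, and Acly, which cuts citrate to acetyl-CoA, had ratios of 3.44 and 1.499. The elongase and desaturase of long polyunsaturated chains went the other way: Elovl5 from 299 to 93.7 FPKM (-1.66) and Fads2 from 370.0 to 177 FPKM (-1.06), and both stayed low. Pklr, the liver pyruvate kinase, was at 61.6 FPKM at W1, 115 at W2, 38.9 at W3, 127 at W6 and 43.5 at W8. It was highest at W2 and W6, and the glycolysis and fructose list moved little as a whole (1 higher and 2 lower of 17, median 0.04).

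Nitrogen disposal genes were higher at W3 as a group. Of 43 genes of the urea cycle and of amino acid breakdown, 30 were higher and 0 lower, with a median of 1.83. Their summed level was 9777 FPKM at W1, 5755 at W2, 24544 at W3, 16884 at W6 and 12325 at W8. W2 was the lowest of the 5 libraries in 27 members and W3 the highest in 26. Against W1 in place of W2, 21 were at least 2-fold higher. Lasting genes numbered 19, 11 of them strictly.

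In the urea cycle, Ass1, which joins citrulline and aspartate (chr2:31470270-31520670), was at 817 FPKM at W1, 235 at W2, 3991 at W3, 3485 at W6 and 1459 at W8, a ratio of 4.08 (4.04 to 4.13). Cps1, the ammonia-fixing entry enzyme, was at 139 FPKM at W1, 74.7 at W2, 665 at W3, 266 at W6 and 214 at W8. Arg1, which releases urea, was at 228 FPKM at W1, 192 at W2, 1348 at W3, 796 at W6 and 1029 at W8. All 3 were highest at W3 and stayed above W1 and W2. Asl and Nags, the lyase and the maker of the Cps1 activator, had ratios of 2.35 and 2.11, and the ornithine carrier Slc25a15 1.55.

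Of the enzymes that feed nitrogen into the cycle, Gpt, the alanine aminotransferase, had the highest ratio, 5.29 (5.04 to 5.55), at 11.99 FPKM at W1, 6.80 at W2, 303 at W3, 226 at W6 and 98.5 at W8. Prodh, the proline dehydrogenase, was at 0.526 FPKM at W1, 0.766 at W2, 41.4 at W3, 44.2 at W6 and 27.0 at W8. Sds, the serine dehydratase, was at 40.8 FPKM at W1, 9.12 at W2, 232 at W3, 154 at W6 and 229.6 at W8. W6 and W8 stayed far above W1 and W2 in each of these. Tat and Tdo2, which start tyrosine and tryptophan breakdown, had ratios of 3.33 and 2.86.

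In methyl metabolism Gnmt, which uses up surplus S-adenosylmethionine, was at 374 FPKM at W1, 154 at W2, 3201 at W3, 2020.0 at W6 and 1043 at W8 (4.37). Cbs and Cth, the transsulfuration pair, had ratios of 2.45 and 3.34. Bhmt, which remethylates homocysteine, was at 2784 FPKM at W1, 531 at W2, 2774 at W3, 1396 at W6 and 1342 at W8: W1 and W3 were level, and the W2 library was the low one. Agxt, Gldc, Hgd and Kynu likewise were within 2-fold of W1 at W3.

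Genes that conjugate and carry drugs and hormones were higher or level. Of 44 phase II and III members, 20 were higher and 0 lower (median 0.91), with 11 lasting and 9 strictly lasting. Glutathione transferases of the mu class led: Gstm1 was at 239.5 FPKM at W1, 284 at W2, 2309 at W3, 1435 at W6 and 664 at W8, Gstm2 had a ratio of 4.21 and Gstm3 5.13. Gstp1, of the pi class and higher in adult males, was at 337 FPKM at W1, 314 at W2, 1082 at W3, 6427 at W6 and 3593 at W8, with most of its increase after W3. These families share sequence, so single members are uncertain. Nnmt, which methylates nicotinamide, was at 2.61 FPKM at W1, 1.05 at W2, 156 at W3, 162 at W6 and 406 at W8, a ratio of 6.26 (5.81 to 6.83), and is listed among fasting genes.

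Cytochromes P450 went both ways. Of 36, 13 were higher and 5 lower (median 0.48), with 7 lasting higher and 3 lasting lower. Cyp2f2, an enzyme of the periportal zone, was at 28.2 FPKM at W1, 5.78 at W2, 212 at W3, 1226 at W6 and 669 at W8. Cyp1a2, a pericentral enzyme that clears caffeine, was at 171 FPKM at W1, 63.6 at W2, 800.3 at W3, 607 at W6 and 275 at W8. Cyp2a5 and Cyp2c29 had ratios of 4.44 and 2.80. Cyp4f14 went from 1.55 to 149 FPKM, and its shape could not be read because its W6 estimate had failed.

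The Cyp3a genes, clustered on chromosome 5, did not move together. Cyp3a44 was at 117 FPKM at W1, 84.6 at W2, 3.91 at W3, 0.284 at W6 and 0.240 at W8. Cyp3a16, the perinatal form, was at 154 FPKM at W1, 127 at W2, 20.8 at W3, 0.362 at W6 and 0.493 at W8, and Cyp3a41a was at 117 FPKM at W1, 13.1 at W2, 0.191 at W3, 0.0976 at W6 and 0.131 at W8. All 3 were lower at W3 and almost absent by W6, Cyp3a41a having already gone down by W2, and all 3 have near-identical copies (Cyp3a41b had a ratio of -3.42). Cyp3a11, the major adult form, was at 455 FPKM at W1, 409 at W2, 456 at W3, 565 at W6 and 469 at W8 and hardly differed, with a ratio of 0.15 (0.11 to 0.20).

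Bile acid genes gave 8 higher and 3 lower of 23 (median 0.57), and only 2 were lasting. Cyp27a1, the side-chain oxidase, was at 20.2 FPKM at W1, 45.0 at W2, 289.7 at W3, 257 at W6 and 223 at W8. Baat, which conjugates bile acids to taurine or glycine, was at 13.2 FPKM at W1, 13.2 at W2, 129.6 at W3, 85.02 at W6 and 95.6 at W8. Cyp7a1, the rate-limiting enzyme of the classical route, was at 29.3 FPKM at W1, 3.83 at W2, 111 at W3, 5.54 at W6 and 4.43 at W8, which was high in the W3 library alone among the later ages. Nr0b2 (SHP), the receptor that represses Cyp7a1, was at 11.1 FPKM at W1, 52.9 at W2, 24.9 at W3, 59.0 at W6 and 49.3 at W8. The 2 genes thus lay on opposite sides at W2 and at W3. The cholesterol exporter gene Abcg8 went from 61.5 to 21.7 FPKM and the bile acid exporter subunit Slc51b from 30.5 to 12.5 FPKM, both back to their W1 levels.

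Retinoid and vitamin genes gave 6 higher and 1 lower of 18 (median 0.33), 5 of them lasting higher. Aldh1a1, which oxidises retinal to retinoic acid, was at 5.79 FPKM at W1, 5.89 at W2, 72.7 at W3, 346 at W6 and 421 at W8, with a further increase after W3. Its close relative Aldh1a7 had a ratio of 3.35, Rdh11 2.21 and Adh4 1.83.

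**Figure D2:**
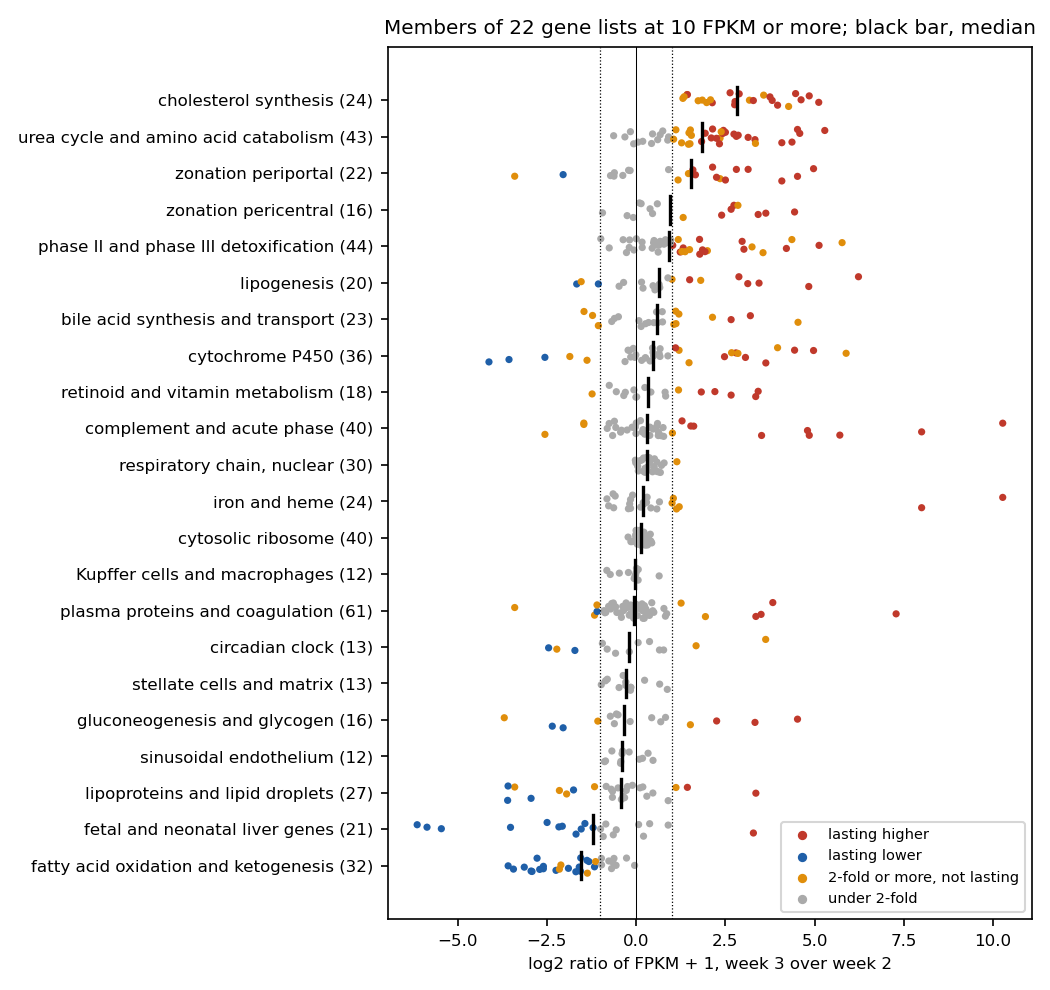
Each point is a member of 1 of 22 gene lists at 10 FPKM or more, placed by its log2 ratio of FPKM + 1 at W3 over W2, with the number of members in brackets and the list's median as a black bar; dotted lines mark 2-fold. All 24 sterol members lie right of the upper line, 22 of 32 fatty acid oxidation members lie left of the lower one, and the ribosomal proteins sit in a narrow band near 0.

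Fatty acid oxidation and ketogenesis formed the widest shift downward. Of 32 members, 22 were lower at W3 and 0 higher, with a median of -1.56, and 18 were lasting lower. W2 was the highest of the 5 weekly libraries in 29 members (90.6%, against 23.7% of all genes). Against W1 the picture was smaller: 11 members were at least 2-fold lower at W3 than at W1, and 7 were strictly lasting.

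Fgf21 and Pdk4 had the largest ratios of the list, while Ppara was near its median (-1.55). Fgf21, a hormone that the suckling liver sends out during fat burning (chr7:45613890-45615490), was at 9.47 FPKM at W1, 42.5 at W2, 2.62 at W3, 1.65 at W6 and 0.827 at W8, a ratio of -3.59 (-4.12 to -3.14). Pdk4, the kinase that shuts pyruvate out of the citric acid cycle, was at 12.4 FPKM at W1, 52.8 at W2, 3.96 at W3, 0.702 at W6 and 1.22 at W8. Ppara, the receptor itself, was at 24.6 FPKM at W1, 41.0 at W2, 13.3 at W3, 9.82 at W6 and 12.04 at W8. W2 was the highest week for each of the 3, and the levels at W3, W6 and W8 were below W1. The receptor's classical targets of the microsome were lower too: Cyp4a10, a fatty acid omega hydroxylase, was at 72.5 FPKM at W1, 399 at W2, 44.5 at W3, 8.04 at W6 and 0.992 at W8, and Cyp4a14 and Cyp4a31 had ratios of -2.25 and -2.70. The thioesterases Acot2 and Acot3 had -2.60 and -2.92, and Vnn1, a pantetheinase, -2.78.

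In the mitochondrion Acadl, the long-chain dehydrogenase, was at 208 FPKM at W1, 323 at W2, 109 at W3, 46.2 at W6 and 46.2 at W8. Hadh, the short-chain hydroxyacyl dehydrogenase, had a ratio of -1.59, and the trifunctional protein subunits Hadha and Hadhb had -1.17 and -1.38. Bdh1, which makes the exported ketone body hydroxybutyrate, was at 282 FPKM at W1, 465 at W2, 75.8 at W3, 72.4 at W6 and 38.5 at W8, and Acat1, the mitochondrial thiolase, had -1.83. Acadl and Bdh1 had W3 under W1 and stayed there. The estimate for Cpt1a, which admits fatty acids to the mitochondrion, had failed at W1 and W2. In the peroxisome Acaa1b, a thiolase, was at 370.2 FPKM at W1, 899.8 at W2, 208 at W3, 584 at W6 and 146 at W8: the W2 library was apart, and the level came up again at W6. The peroxisome list as a whole gave 1 higher and 3 lower of 23 (median 0.03).

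Fatty acid binding and storage followed. In the list of lipoproteins and lipid droplets 8 of 27 were lower and 3 higher (median -0.41). Fabp5, a fatty acid binding protein of skin and fat, was at 1545 FPKM at W1, 1499.9 at W2, 124 at W3, 230.4 at W6 and 253 at W8. Fabp2, the intestinal form, was at 95.9 FPKM at W1, 209 at W2, 16.3 at W3, 26.4 at W6 and 20.8 at W8. Both had W1 and W2 high and the later libraries low. Cidec, which fuses lipid droplets, was at 1.17 FPKM at W1, 10.1 at W2, 0.440 at W3, 0.426 at W6 and 0.215 at W8, and Plin2, the droplet coat protein, was at 272 FPKM at W1, 459 at W2, 103 at W3, 239.6 at W6 and 242 at W8. Plin2 was low in the W3 library alone and was back near W1 by W6. G0s2, the inhibitor of the fat lipase ATGL, had the same shape against W2, at 342 FPKM at W1, 161 at W2, 41.1 at W3, 119 at W6 and 87.6 at W8.

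The fetal and neonatal list gave 11 lower and 1 higher of 21 (median -1.21), and here the step lasted: all 11 lower genes were lasting and 10 strictly. Igf2, the fetal growth factor (chr7:142650768-142666869), was at 1889.7 FPKM at W1, 484 at W2, 5.90 at W3, 4.35 at W6 and 4.01 at W8, a ratio of -6.14 (-6.32 to -5.96). H19, the imprinted noncoding RNA next to it (chr7:142575532-142578146), was at 5891 FPKM at W1, 3126 at W2, 272 at W3, 16.8 at W6 and 15.9 at W8. The neighbours both went down, with Igf2 near its final level by W3 and H19 still far above its own. Afp, the fetal counterpart of albumin, was at 10639 FPKM at W1, 2899 at W2, 48.9 at W3, 35.2 at W6 and 38.5 at W8, and its ratio was -5.86 (-5.94 to -5.78).

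Other imprinted genes went down together with them: Grb10, an adaptor that curbs insulin signalling, had -2.07, Peg3 -2.16, Cdkn1c -1.54 and Mest -1.44. Gpc3, a heparan sulfate proteoglycan that restrains fetal growth, was at 156 FPKM at W1, 199.8 at W2, 34.6 at W3, 0.590 at W6 and 1.13 at W8, and Bex2, a small brain-expressed X-linked protein, was at 76.7 FPKM at W1, 107 at W2, 1.45 at W3, 0.544 at W6 and 0.804 at W8. Bex2 was as high at W2 as at W1 and nearly gone at W3, whereas Gpc3 took until W6. Tff3, a trefoil peptide, was the 1 member higher, at 36.3 FPKM at W1, 24.0 at W2, 243 at W3, 103 at W6 and 119 at W8, after 881 FPKM on postnatal day 1.

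Of the growth axis (2 higher and 4 lower of 14, median -0.08), Igf1, the postnatal growth factor, was at 96.2 FPKM at W1, 49.2 at W2, 158 at W3, 248 at W6 and 203 at W8, on the other side from Igf2. Igfbp2, a binding protein for both factors, was at 3677 FPKM at W1, 7958 at W2, 1335 at W3, 466 at W6 and 232 at W8. Igfbp1, the binding protein that is high in fasting, was at 485 FPKM at W1, 3919.9 at W2, 789 at W3, 50.2 at W6 and 202 at W8. Socs2, the feedback inhibitor of growth hormone signalling, went from 76.0 to 29.97 FPKM.

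Lasting lower genes outside the metabolic lists, named by size, included the leptin receptor and the inhibins. Lepr was at 5.68 FPKM at W1, 74.3 at W2, 2.96 at W3, 0.139 at W6 and 0.253 at W8. Inhbb and Inhbe, subunits of activins and inhibins, were at 34.1 to 0.990 FPKM and 37.8 to 2.00 FPKM from W2 to W3, with ratios of -4.14 and -3.70. Inhbe had been at 73.9 FPKM at W1 and came back in part, to 17.2 at W6 and 14.6 at W8. Inhbb stayed low, at 0.242 FPKM at W6 and 0.441 at W8. Krt23, a keratin, was at 8.01 FPKM at W1, 50.2 at W2, 0.951 at W3, 0.412 at W6 and 0.121 at W8. Among the weeks, Lepr and Krt23 were high in the W2 library only, so their ratios compare with a peak at W2. Among the 15 highest ratios were also 4 copies of the U3 small nucleolar RNA, Rnu3b1 to Rnu3b4, which are near identical and have copies on scaffolds, so their levels are uncertain. Rnu3b4 was at 2.70 FPKM at W1, 0.635 at W2, 98.3 at W3, 60.4 at W6 and 74.2 at W8.

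**Figure D3:**
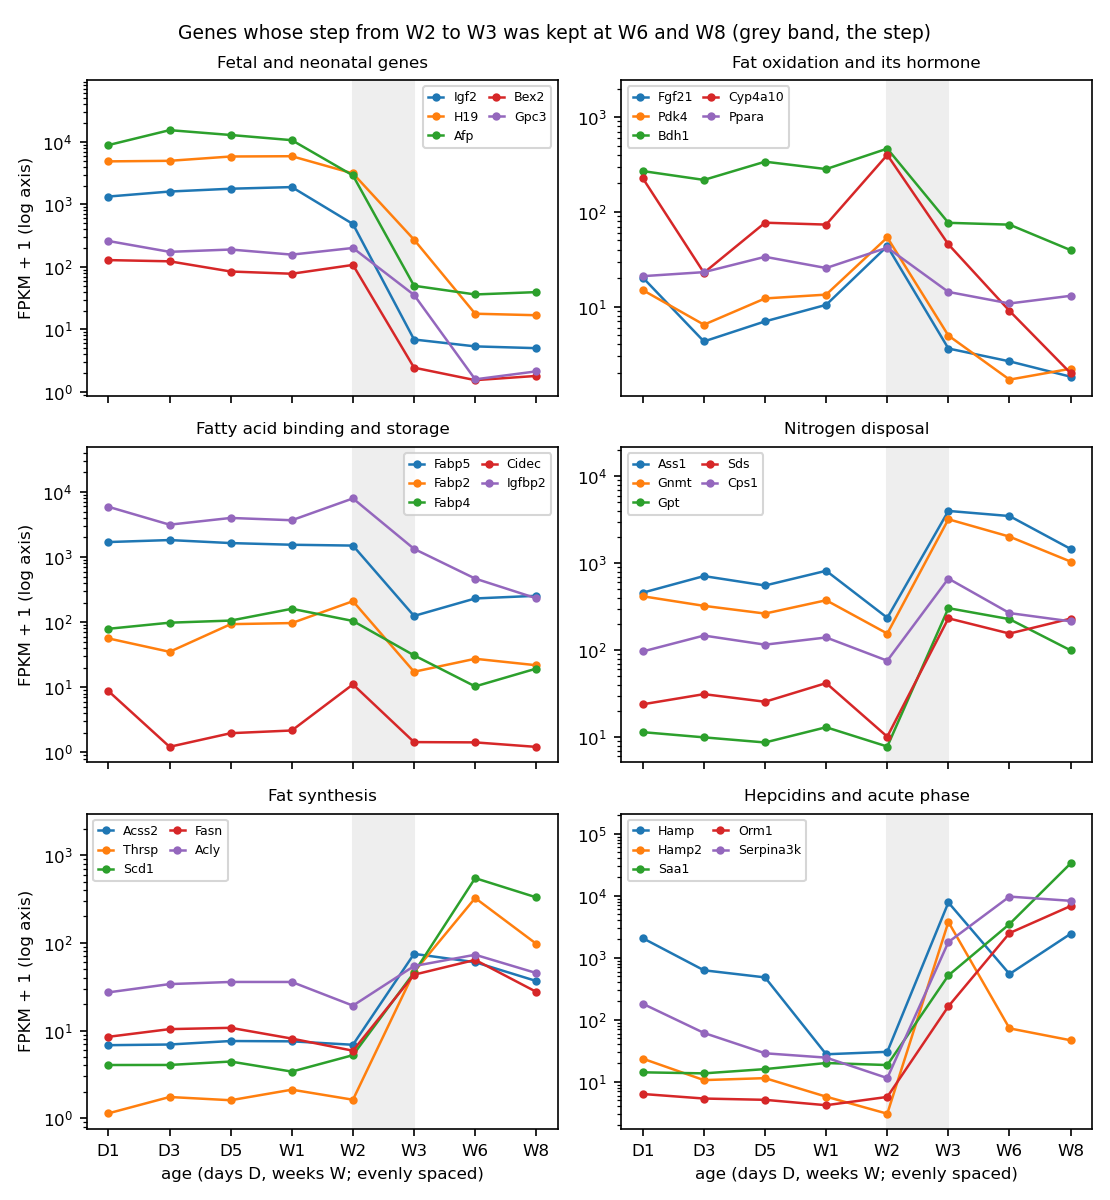
FPKM + 1 (log axis) of 30 genes at 8 postnatal ages from D1 to W8 (evenly spaced), 1 library per point, with the step from W2 to W3 in grey. Igf2, H19 and Afp go down across the band and stay down, Ass1, Gpt and Thrsp go up and stay up, and Hamp and Hamp2 have their weekly peak at W3.

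Some genes were high in the W3 library alone, so 1 library carries each. Amy2a5, a pancreatic amylase, was at 0.395 FPKM at W1, 0.534 at W2, 24.9 at W3, 0.0150 at W6 and listed at 0 at W8, a ratio of 4.08 (3.71 to 4.50). Sult1e1, the oestrogen sulfotransferase, was listed at 0 at W2 and at 12.5 FPKM at W3. Both were below 1 FPKM at W2 and returned there by W6. Of 3 pancreas markers at 10 FPKM or more, Cela1 had a ratio of 1.17 and Pnliprp1 -2.24, so the list did not move as one. Serpina6, which carries corticosteroids in plasma, was at 57.8 FPKM at W1, 91.5 at W2, 354 at W3, 103 at W6 and 52.0 at W8.

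The sex-biased list gave 9 higher and 4 lower of 23 (median 0.56), and 25 of its 48 matched members were under 10 FPKM at both ages. The 4 lower members, all strictly lasting, were the thioesterase Acot3 and the female-biased Cyp3a16, Cyp3a41a and Cyp3a44 given above. Other female-biased members were highest at W3 and low after it: Sult2a1, a hydroxysteroid sulfotransferase, was at 86.3 FPKM at W1, 319.5 at W2, 1278 at W3, 0.201 at W6 and 0.815 at W8, and Cyp17a1, a steroid hydroxylase, was at 1.28 FPKM at W1, 0.378 at W2, 20.5 at W3, 1.47 at W6 and 4.75 at W8. Sult2a1 and Sult2a2 (ratio 1.28) are close copies. Hamp2, given above, also belongs to this list and was highest at W3, though W6 and W8 stayed above W1 and W2. The labels do not name the sex of the mice, but Ddx3y was present and Xist nearly absent in all 5 weekly libraries, as given above.

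Some genes of the W2 apart shape had W2 at least 2-fold from both W1 and W3. Apoa4, an apolipoprotein of fat-rich particles, was at 92.3 FPKM at W1, 988 at W2, 92.5 at W3, 119 at W6 and 151 at W8. Ppp1r3g, which directs glycogen synthesis after meals, was at 2.11 FPKM at W1, 51.3 at W2, 3.04 at W3, 0.257 at W6 and 0.0859 at W8. Both were several-fold high at W2, as was Igfbp1. On the low side, Abat, which breaks down GABA, was at 36.5 FPKM at W1, 13.1 at W2, 66.1 at W3, 38.04 at W6 and 30.6 at W8 and Ces3a, a carboxylesterase, was at 64.5 FPKM at W1, 3.53 at W2, 42.0 at W3, 1697 at W6 and 1059 at W8. Ces3a at W3 was still below W1 and became abundant only by W6.

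Genes of gluconeogenesis and glycogen split evenly, 4 higher and 4 lower of 16 (median -0.34). G6pc, which releases free glucose, was at 261 FPKM at W1, 572 at W2, 138 at W3, 126 at W6 and 165 at W8, and Gys2, the liver glycogen synthase, was at 62.6 FPKM at W1, 192 at W2, 36.8 at W3, 27.3 at W6 and 21.7 at W8. The higher members were Ppp1r3b, a glycogen-targeting subunit (2.26), and the amino acid enzymes Sds, Tat and Got1. Fasting and glucocorticoid genes also went both ways, 6 higher and 3 lower of 18 (median 0.09). Tsc22d3 (GILZ), a glucocorticoid-induced gene, went from 18.9 to 62.7 FPKM and Klf9, another, from 9.90 to 27.1 FPKM.

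Clock genes bear on the hour at which animals were killed, which the labels do not state. Of 13 clock and output members, 2 were higher and 3 lower (median -0.19). Dbp, a clock-driven activator, was at 5.08 FPKM at W1, 20.6 at W2, 2.95 at W3, 0.272 at W6 and 0.129 at W8. Upp2, a uridine phosphorylase with a strong daily rhythm, was at 12.1 FPKM at W1, 11.996 at W2, 159.8 at W3, 26.7 at W6 and 17.8 at W8. Many sterol and bile acid genes, Cyp7a1 among them, also follow the hour and the last meal; the part of either in these results was not tested.

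**Figure D4:**
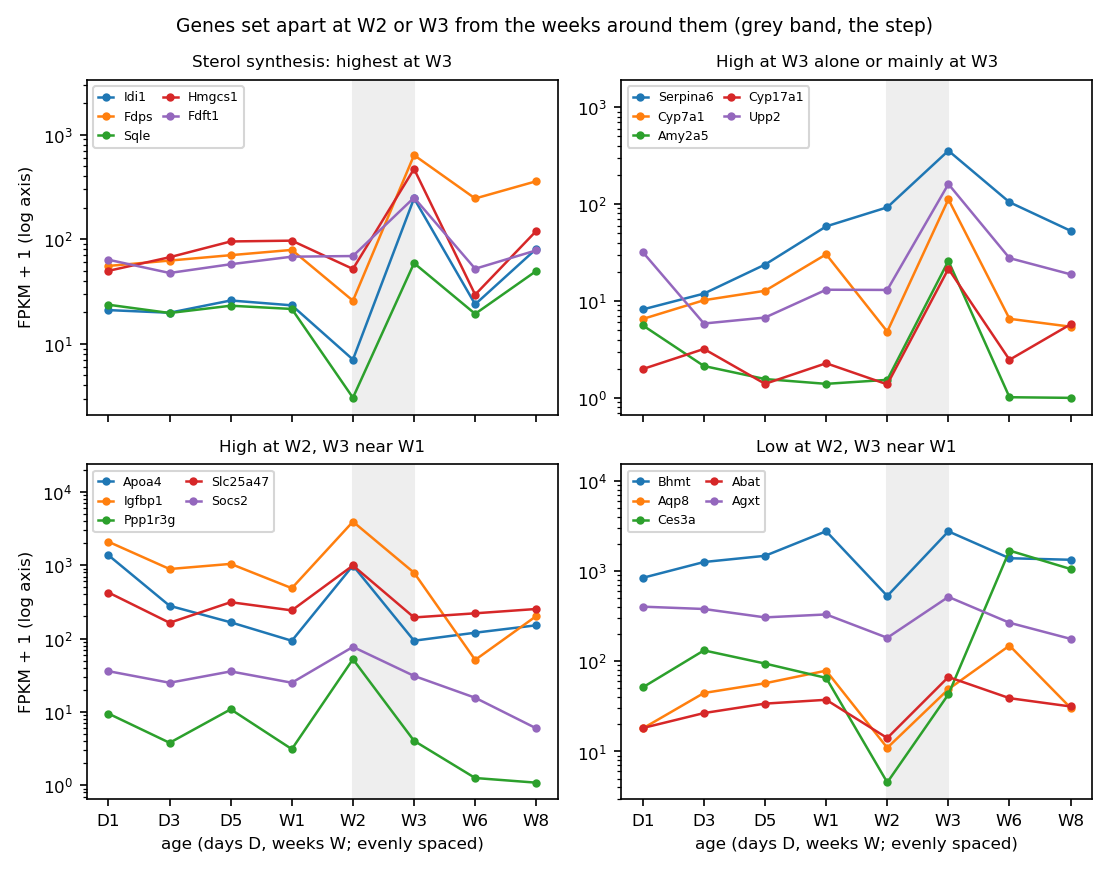
FPKM + 1 (log axis) of 20 genes at 8 postnatal ages (evenly spaced), 1 library per point, with the step from W2 to W3 in grey. The upper panels hold sterol genes and genes with a peak at W3, such as Amy2a5 and Cyp7a1; the lower panels hold genes with a peak or a dip at W2, such as Apoa4 and Bhmt, whose W3 level is near W1.

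Zonation lists, genes of the 2 ends of the liver lobule, each had more higher than lower members. Periportal members gave 13 higher and 2 lower of 22 (median 1.53), but this list shares its nitrogen genes with the list above. Pericentral members gave 8 higher and 0 lower of 16 (median 0.96). That list too shares genes with lists above, such as Cyp2a5 with the cytochromes P450 and Aldh1a1 with the retinoid genes. Slc1a2, a glutamate transporter of the pericentral rim, was at 1.87 FPKM at W1, 1.66 at W2, 13.01 at W3, 14.5 at W6 and 11.7 at W8, and Oat, the ornithine aminotransferase of the same zone, was at 45.2 FPKM at W1, 25.1 at W2, 173 at W3, 127 at W6 and 193 at W8.

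Markers of most other cells in the liver stayed within 2-fold. At 10 FPKM or more, 3 of 4 neutrophil and 2 of 4 bile duct markers were lower. The other markers of these lists, 15 of 19 and 12 of 16, were under 10 FPKM at both ages. In whole tissue fewer cells of a type and less RNA per cell cannot be told apart. None of the 12 Kupffer cell, 12 endothelial, 13 stellate or 8 erythroid markers at 10 FPKM or more differed by 2-fold, with medians of -0.02, -0.39, -0.29 and -0.09. The 4 neutrophil genes had a median of -1.17, S100a8 going from 40.8 to 19.5 FPKM after 633 at W1. Lcn2, the 1 not lower, had a ratio of 0.39. The 2 lower bile duct markers (list median -0.87) were Spp1 and Krt23, and Krt23 had its peak at W2. No T or NK cell marker reached 10 FPKM at W2 or W3, and the 1 B cell and 1 progenitor marker that did had ratios of 0.18 and -0.05.

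Genes of the general machinery of the cell seldom passed 2-fold, though most ribosomal, proteasome and respiratory chain members lay above 0. None of 40 cytosolic ribosomal proteins (33 above 0, median 0.12, but -0.09 with quantile normalization) or 27 proteasome subunits (27 above 0, median 0.35) differed by 2-fold. In the nuclear-encoded respiratory chain 1 of 30 was higher, Cycs at 33.8 to 75.8 FPKM (28 above 0, list median 0.30), and of the 13 mitochondrially encoded genes 1 was higher (12 above 0, median 0.70, summed level 173645 FPKM at W2 and 288635 at W3). The short gene ATP8 made up a large part of both sums, at 81821 and 145860 FPKM. Cell cycle genes, already lower at W2 than at W1 (median -1.16), gave 1 higher and 1 lower of 17, with Cdkn1a at 12.6 to 30.3 FPKM and Ccnb2 at 20.4 to 7.35 FPKM. Antigen presentation had none past 2-fold of 10 (3 above 0, median -0.18). Interferon genes had 2 lower of 15 and leaned downward (2 above 0, median -0.52). Immediate early genes had 1 higher and 1 lower of 8 (4 above 0), and transcription factors and nuclear receptors 4 and 4 of 31. Protein folding genes of the endoplasmic reticulum gave 3 higher of 19, all lasting: Sdf2l1 (2.00), Manf (1.88) and Hyou1 (1.28).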

How the data were processed

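The authors deposited 1 table per library with an FPKM, its lower and upper 95% bound and an estimate status for each of 46966 entries, per the file headers. The submitters' processing notes name Bowtie 0.12.2 and FastQC as tools and GRCm38.p2 as the build, without saying what each did. Which program made the FPKM is not given in the sources used here. Per the labels' protocols, the source was flash-frozen tissue and Trizol RNA.

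From these tables, 2484 scaffold entries were left out. Ratios are log2 of FPKM with a pseudocount of 1, which understates the change of low genes, at 10 FPKM or more in W2 or W3 and an OK status in both. Of the genes past 2-fold, 19 have a second copy on a scaffold and are uncertain. The bounds of single-exon genes gave the estimate of depth; counts per gene were not recovered and no count test was run. The sorting of genes was tested on simulated data with planted changes well past 2-fold, small noise and an otherwise flat course. There 181 of 200 planted genes were given their class and 0 of 2788 flat genes were called. Changes near 2-fold and uneven courses were not simulated. Members and the 42 lists (1120 of 1122 symbols matched) were chosen with earlier results of these data known. Named genes are the 15 largest lasting ratios in each direction, the 5 largest of the other shapes, and list members; predicted genes were not named, the text names a part, some are not reported here, and Acat1, Cyp3a11 and the values of D1 and D5 were chosen after their values were seen. Promoters are RefSeq sequences of GRCm38.p6. Alternatives varied pseudocount, filter, scaling, GC content, neighbouring ages and bounds. Python 3.11.15, numpy 2.4.6, pandas 2.3.3, scipy 1.17.1 and matplotlib 3.10.9 were used.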

Additional observations from a re-analysis of the deposited data

How the results depend on the processing

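No list median or named gene past 2-fold changed sign under the alternatives run, but smaller list medians did, 13 of 41 in all and 7 of them under a scaling. Against the mean of W1 and W2, the median of gluconeogenesis and glycogen went from -0.34 to 0.02, of the clock from -0.19 to 0.10 and of the cell cycle from 0.15 to -0.58. With quantile normalization that of glycolysis and fructose went from 0.04 to -0.29. At 50 FPKM or more, by construction fewer genes, 211 were higher and 127 lower: 98 and 82 lasting, 29 and 5 for W3 alone, and 49 and 33 with W2 apart. At 1 FPKM or more, and without a filter, 557 were lower and 394 lasting lower, with 108 and 16 for W3 alone and 180 and 117 with W2 apart. Quantile normalization gave 16 lower for W3 alone, and 67 higher and 103 lower with W2 apart. A pseudocount of 5 gave 4 lower for W3 alone. Asking that the bounds be 2-fold apart left 258 higher. The strict lasting rule, chosen after seeing the data, left 92 higher and 105 lower. Leaving out W6, W8 or W1, lasting higher genes numbered 190, 225 and 184 and lasting lower genes 232, 232 and 235. These counts are by construction no smaller than 167 and 210, because leaving out an age only drops conditions from the rule. Of all genes past 2-fold, 56.6% were higher as deposited and 49.6% under quantile normalization or with mitochondrial transcripts left out, and the balance of lasting genes turned with median ratios (210 higher, 167 lower). For the moved counts other than those at 50 FPKM and under the strict rule, the cause was not tested. No paired analysis was possible because each age has 1 library and replicate numbers pair nothing. Levels near 0.184 FPKM rest on 3 fragments or fewer per 1000 bases.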
